A study of Mus musculus with 18 samples.

Results

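The comparison described here sets mouse embryonic stem cells labelled Ring1a/b-dKO against cells labelled Ring1b-KO. It uses 6 of the 18 RNA libraries of the series, 3 of each genotype, chosen by their genotype labels alone. Both groups carry the Ring1b knockout, so the label that separates them is the loss of Ring1a, the product of the gene Ring1. The 3 Ring1a-KO and 3 WT libraries are given beside them where they bear on a result. By their labels, they make the Ring1a step in cells that keep Ring1b. The labels state no culture medium, deletion strategy or parental line, and nothing in them tells whether replicates were grown apart, so p-values here measure the spread between libraries. They also do not say whether a genotype is 1 clone or several.

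Polycomb repressive complex 1 (PRC1) attaches ubiquitin to histone H2A and helps to keep developmental genes silent in embryonic stem cells. Ring1a and Ring1b are its alternative catalytic subunits, and Ring1b is the major one in these cells. Each complex also holds a Pcgf protein: complexes with Pcgf2 or Bmi1 carry a Cbx subunit that reads the histone mark of PRC2 (canonical PRC1), and the variant complexes with the other Pcgf proteins do not need that mark.

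RNA was measured as TPM, a share of transcripts scaled to the same total in every library, so the depth behind a value is unknown. Tests are from limma on log2(TPM + 1), and a gene is called when its p, adjusted over 17842 genes, is under 0.05. The adjusted p-values below are all of this kind, and errors of log2 fold changes are SE. The 10 embryonic stem cell markers checked were present in both genotypes, with means of at least 36.3 TPM in Ring1a/b-dKO and 74.6 TPM in Ring1b-KO. The 12 fibroblast markers summed to 49.4 to 51.1 TPM in Ring1a/b-dKO and 48.4 to 54.3 TPM in Ring1b-KO, with Lum listed at 0 in all 6 libraries. The 6 of them that could be tested were all called: Twist2 (1.45), Fbn1 (1.21), Pdgfrb (0.96) and Col1a1 were higher in Ring1a/b-dKO, at means of at most 4.12 TPM in Ring1a/b-dKO and 1.68 TPM in Ring1b-KO, and Thy1 (-0.45) and Fbln1 (-0.26), which made up most of the sum, were lower. Of all genes tested, 41.1% were called higher and 18.8% lower. The part of the fibroblast markers in the results below was not tested.

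The targeted genes were read first. Ring1 had 2.74, 6.12 and 9.4 TPM in Ring1a/b-dKO, against 8.55, 11.9 and 9.17 TPM in Ring1b-KO. The groups overlapped, with Ring1a/b-dKO replicate 3 within the range of the Ring1b-KO libraries, and the log2 fold change was -0.73 ± 0.28 (adjusted p = 0.0345). Leaving out Ring1a/b-dKO replicate 1 moved it to -0.32 (adjusted p = 0.206), leaving out Ring1b-KO replicate 2 to -0.60 (adjusted p = 0.119), and leaving out Ring1b-KO replicate 3 to -0.77 (adjusted p = 0.055). With only the 6 compared libraries in the fit its adjusted p was 0.139. Rnf2, the gene of Ring1b, had 24.7, 24.15 and 19.4 TPM in Ring1a/b-dKO, against 47.8, 52.98 and 47.35 TPM in Ring1b-KO. All Ring1a/b-dKO values lay below all Ring1b-KO values, with a log2 fold change of -1.09 ± 0.08 (adjusted p = 1.99e-08). Rnf2 RNA averaged 94.1 TPM in Ring1a-KO and 71.3 TPM in WT. Gene-level TPM counts reads from all exons, so it does not show whether a deleted exon is absent.

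Of the 17842 genes tested, 10692 were called (59.9%), 7334 of them higher (41.1%) and 3358 lower (18.8%) in Ring1a/b-dKO than in Ring1b-KO. Counts of list members below are to be read against these shares. At least 2-fold changes were called for 1557 genes upward (8.73%) and 728 downward (4.08%). For 12109 genes (67.9%) the 3 libraries of one genotype lay entirely above or below those of the other. The libraries of the 2 genotypes stood 0.805 to 0.824 apart (root mean square log2 distance), against a mean of 0.407 within Ring1a/b-dKO and 0.455 within Ring1b-KO. The median of all genes was shifted by 0.17 on the log2 scale. Scaling by the median ratio put that median at 0.006, and then 51.5% of calls were higher in Ring1a/b-dKO, against 68.6% on the TPM scale and 52.3% after quantile normalization. Log2 fold changes below are on the TPM scale, so a value relative to the median gene is lower by that shift. Mitochondrially encoded genes took 5.25% ± 0.22 of TPM in Ring1a/b-dKO and 7.18% ± 0.20 in Ring1b-KO (SD, n = 3 each; two-sided exact permutation p = 0.1, the smallest possible with 3 against 3). With nuclear protein-coding genes alone, 6372 of 14633 were called higher and 3074 lower.

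**Figure D1:**
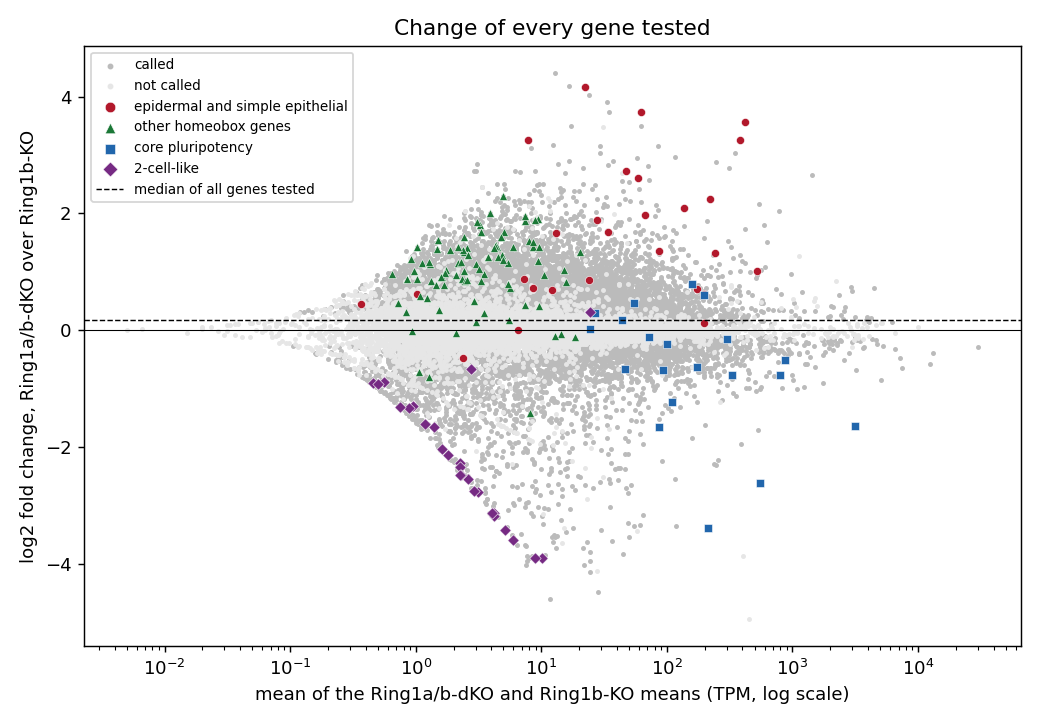
Log2 fold change of Ring1a/b-dKO over Ring1b-KO (vertical axis) against the mean level in TPM (horizontal log axis) for every gene tested, with 4 gene lists in colour. Most epithelial genes (red circles) and homeobox genes (green triangles) lie above the dashed median of 0.17, and most 2-cell-like genes (purple diamonds) run along the lower edge, with Ring1a/b-dKO levels near 0.

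The genotypes also differed in ways that mark whole libraries. The 4 Y-linked genes Ddx3y, Uty, Eif2s3y and Kdm5d summed to 0.21, 0.39 and 0.05 TPM in Ring1a/b-dKO, against 7.54, 7.93 and 8.08 TPM in Ring1b-KO. They summed to 0.16 ± 0.096 TPM in Ring1a-KO and 69.5 ± 2.8 TPM in WT (SD, n = 3 each). In other libraries of the series, whose labels do not name Ring1a, these genes summed to 0.09 ± 0.01 TPM (Pcgf-4KO) and 45.5 ± 6.7 TPM (Pcgf-6KO). For these genes, as for every gene compared here, the loss of Ring1a cannot be told apart from a difference between the cell lines. Chromosomes 16 and 11 had the highest medians, and were read in stretches of 20 Mb with at least 20 genes at a mean of 5 TPM. On chromosome 16 each such stretch was raised, with median log2 fold changes of 0.57 to 0.77. Chromosome 11 was uneven, from 0.12 at 20 to 40 Mb to 0.55 at 60 to 80 Mb, with its other stretches at 0.29 to 0.53. Whether it was shifted as a whole was not tested. Median log2 fold changes were 0.64 on chromosome 16, where 76.3% of genes were called higher, and 0.40 on chromosome 11 (61.2%), against 0.06 to 0.24 on the other autosomes and X. Relative to WT and each library's own median, chromosome 16 genes stood at 0.23 in all 3 Ring1a/b-dKO libraries, at -0.22 to -0.25 in Ring1b-KO and at 0.19 to 0.22 in Ring1a-KO. The same genes stood at 0.27 to 0.29 in Pcgf-4KO and at 0.23 to 0.28 in Pcgf-6KO. Leaving out both chromosomes left 6117 genes called higher and 3193 lower. Without them 25 of 27 Hox genes and 69 of 80 other homeobox genes were still called higher.

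**Figure D2:**
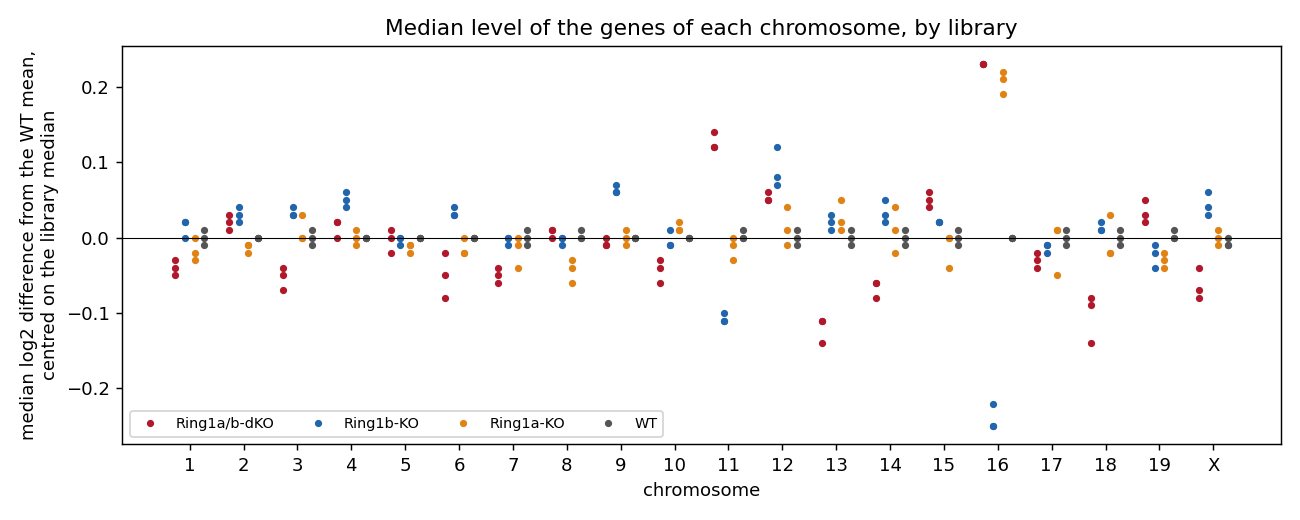
Median log2 difference from the WT mean of the genes on each chromosome (vertical axis), centred on each library's median, for the libraries of Ring1a/b-dKO, Ring1b-KO, Ring1a-KO and WT. Chromosome 16 is at 0.23 in Ring1a/b-dKO, between -0.22 and -0.25 in Ring1b-KO and between 0.19 and 0.22 in Ring1a-KO, and chromosome 11 separates Ring1a/b-dKO from Ring1b-KO.

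Among the lists examined, the lowest median belonged to genes of the 2-cell-like state, a rare state of embryonic stem cell cultures that shares transcripts with the embryo after its first cleavage. Of 32 listed genes 26 were tested, and 25 were lower and 1 higher (Zfp809) in Ring1a/b-dKO, with a median log2 fold change of -2.31. Zfp809, a repressor of proviruses, had a log2 fold change of 0.31 (adjusted p = 0.0212) that was not called under either other scaling, without Ring1a/b-dKO replicate 1 or 3, or without Ring1b-KO replicate 1 or 3 (adjusted p = 0.0537 to 0.374). Their levels were low: 22 of the 26 reached a mean of 1 TPM in Ring1b-KO and not in Ring1a/b-dKO. All 26 also pass the filter on low values in the 12 libraries of the 4 other groups. Zscan4f, a zinc finger and SCAN domain gene of the Zscan4 cluster, had 0.54, 0.39 and 0.25 TPM in Ring1a/b-dKO, against 19.85, 20.6 and 18.9 TPM in Ring1b-KO. It was listed at 0 in all 3 WT libraries and averaged 0.033 TPM in Ring1a-KO, so of these 4 genotypes Ring1b-KO was high. The log2 fold change was -3.90 ± 0.11 (adjusted p = 4.22e-13). Zscan4c had 0.09, 0.05 and 0.08 TPM in Ring1a/b-dKO, against 12.5, 11.1 and 11.85 TPM in Ring1b-KO, again without overlap, and fell by 3.58 on the log2 scale (adjusted p = 4.83e-13). Tcstv1 and Tcstv3 were listed at 0 in every Ring1a/b-dKO library and averaged 4.54 and 5.79 TPM in Ring1b-KO. Duxf3, a gene of the Dux family of 2-cell activators, averaged 0.063 TPM in Ring1a/b-dKO and 1.71 TPM in Ring1b-KO. The Zscan4, Tcstv and Usp17l genes have near-identical copies, so the split of reads between members is uncertain. In bulk RNA, fewer cells in this state and less RNA per cell cannot be told apart.

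The promoter windows of both Zscan4 genes are shown because these copies are among the 2-cell-like genes that fell most. They run from 250 bases before to 50 after the annotated start (RefSeq, GRCm38.p6), and capitals mark TATAAA, the TATA box letters, searched on both strands. Zscan4f lies at chr7:11397665-11397964 and Zscan4c at chr7:11005495-11005794, both on the plus strand.
Zscan4f: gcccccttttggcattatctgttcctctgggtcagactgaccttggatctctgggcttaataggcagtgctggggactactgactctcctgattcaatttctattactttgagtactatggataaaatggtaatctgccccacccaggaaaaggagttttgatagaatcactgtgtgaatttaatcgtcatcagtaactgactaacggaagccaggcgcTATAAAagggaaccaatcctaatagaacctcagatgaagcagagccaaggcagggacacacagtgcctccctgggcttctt
Zscan4c: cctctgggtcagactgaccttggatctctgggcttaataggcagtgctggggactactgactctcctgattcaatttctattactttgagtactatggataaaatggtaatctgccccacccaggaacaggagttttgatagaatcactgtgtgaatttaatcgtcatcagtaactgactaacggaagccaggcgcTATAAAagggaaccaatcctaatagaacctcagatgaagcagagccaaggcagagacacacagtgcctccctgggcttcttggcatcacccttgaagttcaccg
Aligned end to end, the 2 windows matched at 275 of 323 columns (85.1%). Most unmatched columns are overhanging ends, because the windows start at different points of a shared sequence. The percentage therefore understates how alike the shared stretch is. TATAAA stood in 7 of the 15 promoters of listed 2-cell-like genes that the table holds, and in 14.2% of all 27025 promoters of the table.

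Germline genes, a class that variant PRC1 keeps silent in embryonic stem cells, were called at shares near those of all genes. Of 58 tested genes 21 were higher (36.2%, against 41.1% of all genes) and 14 lower (24.1%, against 18.8%) in Ring1a/b-dKO, with a median of 0.01. Under median ratio scaling 17 were higher and 22 lower, and 26 were lower after quantile normalization. Fkbp6, a chaperone of the piRNA pathway that silences transposons in germ cells, had 2.17, 2.36 and 2.61 TPM in Ring1a/b-dKO, against 49.05, 43.9 and 45.5 TPM in Ring1b-KO. It fell by 3.80 on the log2 scale (adjusted p = 6.59e-14), and the groups were far apart. Fkbp6 averaged 0.207 TPM in Ring1a-KO and 0.273 TPM in WT, so its Ring1a/b-dKO level was still above both. Dazl, an RNA-binding protein of germ cells, had 12.3, 10.6 and 12.3 TPM in Ring1a/b-dKO, against 84.9, 87.0 and 89.0 TPM in Ring1b-KO. The genotypes did not overlap, and the log2 fold change was -2.79 ± 0.08 (adjusted p = 4.22e-13). Ring1a-KO and WT averaged 0.997 and 1.09 TPM of Dazl, so Ring1a/b-dKO stayed above both. Hormad2, a meiotic axis protein, fell by 1.63 (adjusted p = 5.23e-06).

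Other germline genes moved the opposite way. Taf7l, a testis form of a TFIID subunit, had 103, 99.2 and 96.5 TPM in Ring1a/b-dKO, against 27.9, 30.4 and 30.5 TPM in Ring1b-KO. Every Ring1a/b-dKO library was higher, with a log2 fold change of 1.72 ± 0.08 (adjusted p = 1.98e-10). Tdrd1, a Tudor protein of the piRNA pathway, had 9.96, 9.68 and 8.81 TPM in Ring1a/b-dKO, against 2.66, 2.68 and 2.98 TPM in Ring1b-KO, and Tex101, a germ cell surface protein, rose by 1.62 (adjusted p = 7.83e-08). Ddx4, the germ cell RNA helicase, averaged 151 TPM in Ring1a/b-dKO and 74.2 TPM in Ring1b-KO. Others were not called: Dmc1 averaged 22.2 TPM in Ring1a/b-dKO and 22.4 TPM in Ring1b-KO, and Piwil2 64.5 TPM in Ring1a/b-dKO and 64.8 TPM in Ring1b-KO.

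Because the Mga and Max proteins of the Pcgf6 complex bind the E-box CACGTG, promoters of 2 genes that fell and 2 that rose are printed, with CACGTG in capitals. The palindrome reads alike on both strands. Fkbp6 (the first of 2 windows listed) is at chr5:135349995-135350294 on the minus strand and Dazl at chr17:50293571-50293870 on the minus strand. Taf7l is at chrX:134476441-134476740 on the minus strand and Tdrd1 (first of 3 windows) at chr19:56825959-56826258 on the plus strand.
Fkbp6: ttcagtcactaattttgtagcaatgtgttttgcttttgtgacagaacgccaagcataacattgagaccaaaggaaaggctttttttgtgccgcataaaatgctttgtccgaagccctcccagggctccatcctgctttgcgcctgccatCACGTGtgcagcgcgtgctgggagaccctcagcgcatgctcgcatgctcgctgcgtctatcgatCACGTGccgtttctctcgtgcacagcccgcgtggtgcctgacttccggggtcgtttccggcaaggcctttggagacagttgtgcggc
Dazl: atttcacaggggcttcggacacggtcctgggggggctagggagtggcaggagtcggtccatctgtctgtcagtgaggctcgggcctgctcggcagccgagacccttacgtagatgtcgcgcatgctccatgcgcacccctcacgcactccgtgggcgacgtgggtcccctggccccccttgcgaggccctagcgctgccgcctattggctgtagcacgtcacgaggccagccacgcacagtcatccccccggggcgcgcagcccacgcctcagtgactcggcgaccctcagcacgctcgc
Taf7l: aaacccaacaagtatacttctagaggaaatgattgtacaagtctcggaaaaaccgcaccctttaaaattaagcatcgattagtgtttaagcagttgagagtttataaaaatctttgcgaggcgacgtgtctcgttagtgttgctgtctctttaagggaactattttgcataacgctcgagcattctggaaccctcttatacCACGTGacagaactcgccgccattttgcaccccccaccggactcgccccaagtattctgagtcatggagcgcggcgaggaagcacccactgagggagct
Tdrd1: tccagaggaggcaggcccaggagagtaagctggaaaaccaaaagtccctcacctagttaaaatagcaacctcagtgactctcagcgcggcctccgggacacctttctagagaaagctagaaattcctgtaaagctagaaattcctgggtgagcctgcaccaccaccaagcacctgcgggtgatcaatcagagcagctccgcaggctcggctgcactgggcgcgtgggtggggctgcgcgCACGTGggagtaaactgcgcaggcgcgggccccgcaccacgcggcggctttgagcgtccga
CACGTG occurred 2 times in Fkbp6 and 1 time each in Taf7l and Tdrd1, and it was not among the letters of the Dazl window. It stood in 19 of the 53 listed germline promoters that could be matched (35.8%), against 7.24% of all promoters of the table. By direction it was in 7 of 20 promoters of genes called higher, 4 of 13 called lower and 8 of 20 not called. These are letter matches in the windows, not sites shown to be bound.

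Pluripotency genes were mostly lower. In the core list of 20 genes, 13 were lower (65%, against 18.8% of all genes) and 5 higher (25%, against 41.1%). Under either other scaling 3 were higher. The median of the list was -0.57. Nanog, a homeodomain factor of the pluripotency network, had 37.4, 34.1 and 37.2 TPM in Ring1a/b-dKO, against 399, 379 and 382 TPM in Ring1b-KO. No library of either genotype came near the other, and the log2 fold change was -3.38 ± 0.05 (adjusted p = 3.26e-16). Ring1a-KO and WT averaged 135 and 108 TPM, so Nanog stood above WT in Ring1b-KO and below it in Ring1a/b-dKO. Tdgf1, the Nodal co-receptor Cripto, had 158, 153 and 152 TPM in Ring1a/b-dKO, against 955, 944 and 950.1 TPM in Ring1b-KO and fell by 2.61 (adjusted p = 5.15e-16). Fgf4, the growth factor that starts the exit from pluripotency through ERK, fell by 1.65 (adjusted p = 7.60e-12).

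Pou5f1 (Oct4) and Sox2, the central factors of the network, were also called lower. Pou5f1 had 612, 583 and 581 TPM in Ring1a/b-dKO, against 1011, 989 and 1039.7 TPM in Ring1b-KO, a log2 fold change of -0.77 ± 0.04 (adjusted p = 3.93e-10) with no overlap. Sox2 had 138, 135 and 136 TPM in Ring1a/b-dKO, against 206, 205 and 223 TPM in Ring1b-KO, a log2 fold change of -0.63 ± 0.06 (adjusted p = 1.45e-07), also with no overlap. Zfp42 (Rex1), a marker of the naive state, averaged 77.1 TPM in Ring1a/b-dKO and 74.6 TPM in Ring1b-KO and was not called (adjusted p = 0.385), although median ratio scaling called it lower at -0.14. Of the 5 core genes that were higher, Dppa2 and Dppa4, partner proteins that prime developmental promoters, rose by 0.80 and 0.61 (adjusted p = 1.97e-09 and 3.32e-09). Both lie on chromosome 16, whose genes were higher as a group.

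Naive pluripotency genes were lower for 11 of 20 (55%, against 18.8% of all genes) and higher for 4 (20%, against 41.1%). Klf4, a Kruppel-like factor, had 9.37, 8.79 and 9.21 TPM in Ring1a/b-dKO, against 61.2, 61.7 and 60.9 TPM in Ring1b-KO. Ring1a-KO and WT averaged 3.34 and 16.04 TPM, so of these 4 genotypes Ring1b-KO was the highest, and the log2 fold change was -2.62 ± 0.08 (adjusted p = 6.96e-13). Prdm14 and Tbx3, which support the naive state, averaged 2.29 and 18.8 TPM in Ring1a/b-dKO, against 9.85 and 61.3 TPM in Ring1b-KO, and both were called lower. Klf2 went the other way and rose by 1.01 (adjusted p = 1.84e-10). Among 19 genes of the formative and primed states, 10 were higher (52.6%) and 3 lower (15.8%), not far from the shares of all genes. Under median ratio scaling 10 were higher and 7 lower. Sox4 and Pou3f1, factors of the exit from the naive state, rose by 1.21 and 1.08 (adjusted p = 3.48e-08 and 1.40e-09). They averaged 27.07 and 12.9 TPM in Ring1a/b-dKO and 11.17 and 5.59 TPM in Ring1b-KO. The WT means were 27.13 and 16.74 TPM, so neither gene stood above WT in Ring1a/b-dKO. Otx2, a factor that drives the primed state, had 3.74, 4.52 and 3.76 TPM in Ring1a/b-dKO, against 12.05, 12.7 and 12.1 TPM in Ring1b-KO, a log2 fold change of -1.41 ± 0.10 (adjusted p = 1.03e-08) with no overlap. Otx2 was low in Ring1a-KO too, at a mean of 4.10 TPM, against 13.8 TPM in WT.

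**Figure D3:**
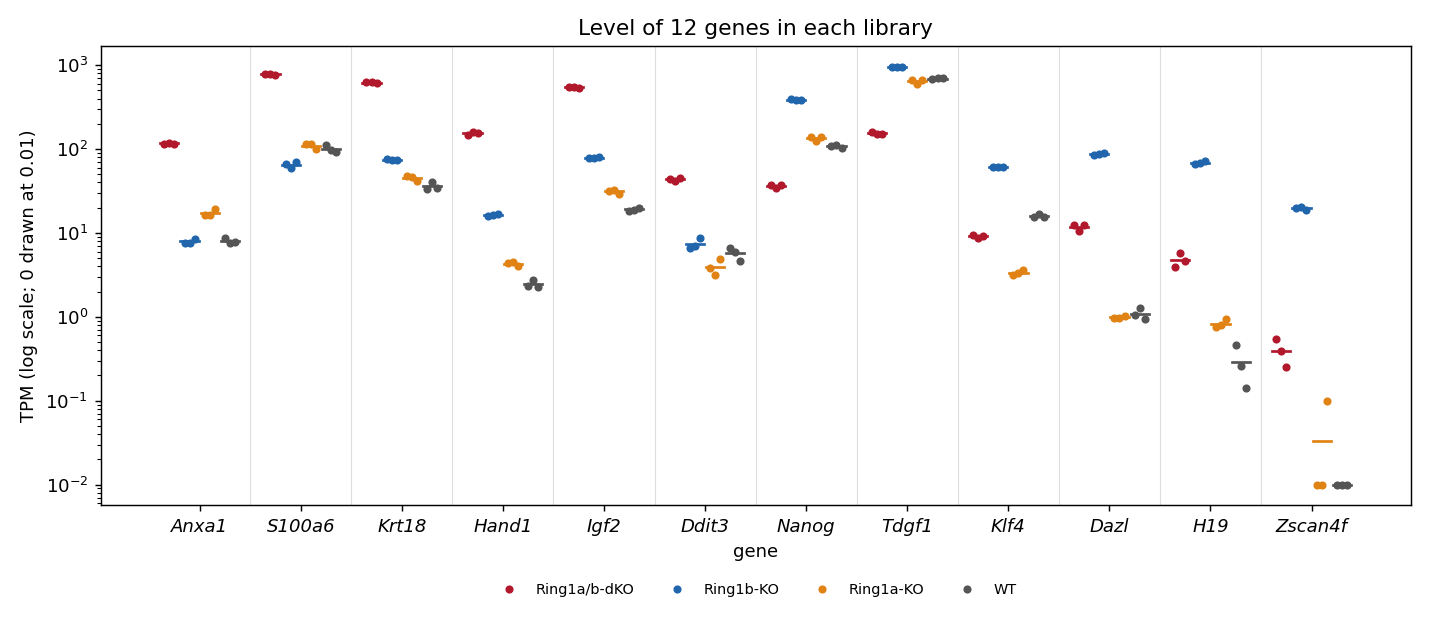
Level of 12 genes (TPM, log axis) in the 3 libraries of Ring1a/b-dKO, Ring1b-KO, Ring1a-KO and WT, with a bar at each mean and 0 drawn at 0.01. The first 6 genes are highest in Ring1a/b-dKO, and Nanog, Tdgf1, Klf4, Dazl, H19 and Zscan4f are highest in Ring1b-KO.

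Epidermal and simple epithelial genes had a median of 1.36, the highest of the lists on the log2(TPM + 1) scale, while with log2(TPM + 0.1) immediate early genes (1.60) and other homeobox genes (1.57) stood above them (1.40), and with no filter on low values immediate early (1.25) and other homeobox genes (0.95) did too (0.94). Of the 27 tested genes, 25 were higher and 1 lower (Krt14). Anxa1, a calcium-dependent membrane-binding annexin, had 116, 118 and 116 TPM in Ring1a/b-dKO, against 7.59, 7.67 and 8.51 TPM in Ring1b-KO, a rise of 3.73 (adjusted p = 1.28e-15). S100a6, a calcium-binding protein, had 784, 775 and 771 TPM in Ring1a/b-dKO, against 66.25, 59.8 and 69.4 TPM in Ring1b-KO. Lgals1, a galactose-binding lectin, had 689.7, 688 and 709 TPM in Ring1a/b-dKO, against 73.9, 72.0 and 70.3 TPM in Ring1b-KO. All of these genes were separate between the genotypes, and S100a6 and Lgals1 rose by 3.56 and 3.25 (adjusted p = 6.59e-14 and 1.15e-16). Krt14, a keratin of basal epidermis, had 1.85, 2.14 and 1.51 TPM in Ring1a/b-dKO, against 3.13, 2.63 and 3.01 TPM in Ring1b-KO, and Krt5 and Trp63 stayed under 1 TPM in both means. Krtdap, a secreted keratinocyte differentiation protein, had 74.6, 44.35 and 69.2 TPM in Ring1a/b-dKO, against 6.4, 2.56 and 1.67 TPM in Ring1b-KO, with no overlap and a spread that gave an SE of 0.32 on a rise of 3.91.

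Keratins of simple epithelia and trophoblast genes rose with them. Of 28 trophoblast genes, 22 were higher and 1 lower. Krt18, a keratin of simple epithelia, had 622, 629 and 608 TPM in Ring1a/b-dKO, against 75.2, 73.7 and 74.65 TPM in Ring1b-KO, a rise of 3.04 ± 0.06 (adjusted p = 6.99e-15). Krt8 and Krt7 averaged 432 and 30.2 TPM in Ring1a/b-dKO, against 57.8 and 3.18 TPM in Ring1b-KO. Hand1, a helix-loop-helix factor of giant cells and of heart mesoderm, had 146, 159 and 157 TPM in Ring1a/b-dKO, against 15.9, 16.5 and 17.0 TPM in Ring1b-KO. It averaged 4.29 TPM in Ring1a-KO and 2.45 TPM in WT, and the rise was 3.15 ± 0.06 (adjusted p = 2.60e-15). Cdx2, the trophectoderm and hindgut factor, had 9.01, 8.75 and 8.74 TPM in Ring1a/b-dKO, against 0.81, 0.84 and 1.4 TPM in Ring1b-KO, a rise of 2.30 (adjusted p = 1.41e-10). Eomes, a trophoblast stem cell factor, was called higher, at 12.9 TPM in Ring1a/b-dKO and 7.39 TPM in Ring1b-KO. Elf5, another such factor, was not called, at 1.43 TPM in Ring1a/b-dKO and 1.11 TPM in Ring1b-KO. Placental hormone genes of the list (Prl3d1, Prl2c2) stayed under 0.4 TPM in both means.

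The listed homeobox genes, classic PRC1 targets, were higher almost throughout. Nanog and Obox6, homeobox genes outside these lists, were lower, with log2 fold changes of -3.38 and -3.62. In all 4 Hox clusters the summed level was higher in Ring1a/b-dKO. Summed HoxA genes had 54.1, 53.5 and 56.7 TPM in Ring1a/b-dKO, against 35.9, 32.5 and 36.4 TPM in Ring1b-KO. The HoxB sum was 40.02, 42.7 and 44.5 TPM in Ring1a/b-dKO, against 20.1, 18.1 and 19.8 TPM in Ring1b-KO. HoxC gave 43.5, 41.4 and 44.8 TPM in Ring1a/b-dKO, against 20.7, 20.6 and 21.2 TPM in Ring1b-KO, and HoxD gave 43.0, 43.6 and 42.5 TPM in Ring1a/b-dKO, against 25.7, 26.8 and 24.8 TPM in Ring1b-KO. No cluster sum overlapped between the genotypes, and the WT sum of all 39 Hox genes was 2.35 to 2.76 TPM. Of 37 tested Hox genes 34 were called higher, and Hoxa9, Hoxd8 and Hoxb1 were not called. In the 12 libraries of the other groups, 34 of them pass the filter on low values, and 31 of those were called higher. On the log2(TPM + 1) scale, 10 rises were at least 2-fold.

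Hoxb6 had 3.83, 5.41 and 4.26 TPM in Ring1a/b-dKO, against 0.26, 0.27 and 0.56 TPM in Ring1b-KO, a rise of 2.01 ± 0.12 (adjusted p = 2.39e-09). Hoxd13, the Hox gene with the highest mean in both genotypes, averaged 17.8 TPM in Ring1a/b-dKO and 9.46 TPM in Ring1b-KO. Hoxa9 and Hoxd8 were not called, with 6.33 and 2.99 TPM in Ring1a/b-dKO and 6.77 and 3.90 TPM in Ring1b-KO. The HoxB cluster, on chromosome 11, gave 5 of the 10 Hox genes called at 2-fold or more. Of 87 other homeobox genes tested, 75 were higher and 3 lower (5 lower under median ratio scaling and 6 after quantile normalization), with 49 rises of at least 2-fold. Of these 87, 32 reached a mean of 1 TPM in Ring1a/b-dKO and not in Ring1b-KO, and 66 of the 76 that pass the filter in the other groups were higher. Barx1, a homeobox gene of stomach and jaw, averaged 29.9 TPM in Ring1a/b-dKO and 11.2 TPM in Ring1b-KO. Tlx3, which specifies sensory neurons, had 13.1, 12.3 and 11.8 TPM in Ring1a/b-dKO, against 2.17, 2.06 and 3.18 TPM in Ring1b-KO. The genotypes did not overlap for Tlx3. Gbx2 was not called, at 12.4 TPM in Ring1a/b-dKO and 13.2 TPM in Ring1b-KO.

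**Figure D4:**
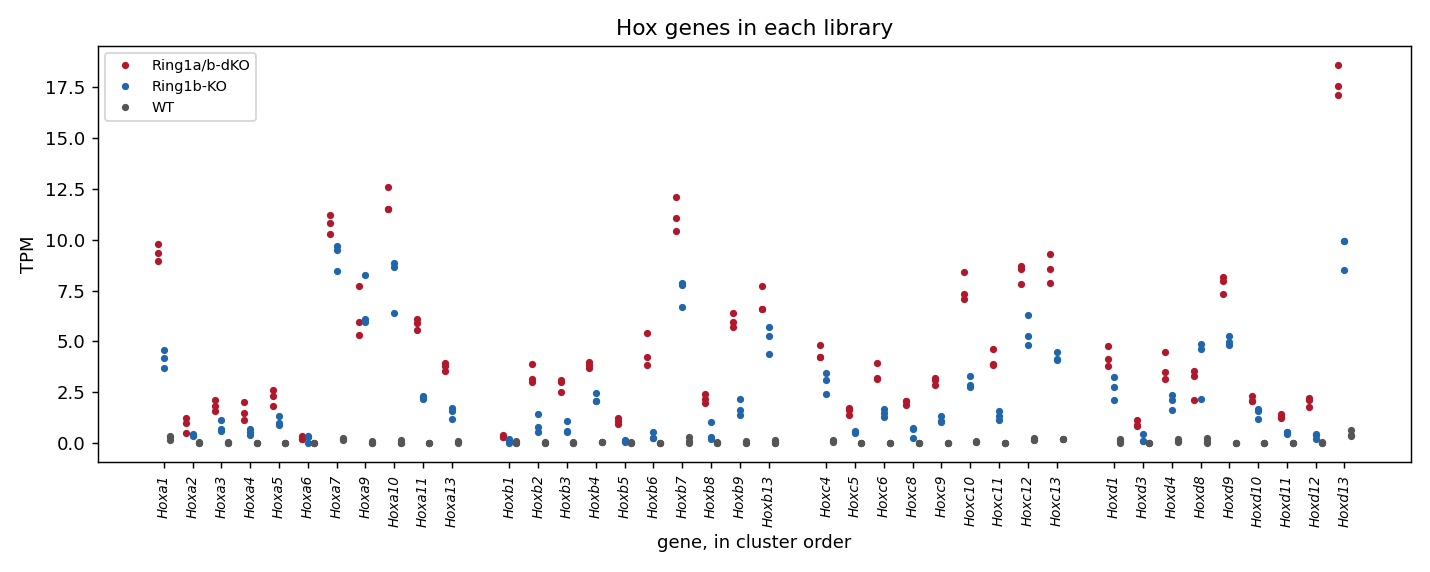
Level of each Hox gene (TPM) in the 3 libraries of Ring1a/b-dKO, Ring1b-KO and WT, in cluster order. Ring1a/b-dKO points lie above Ring1b-KO points for most genes of all 4 clusters, and WT points lie near 0.

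Other lineage lists are read against all genes tested, of which 41.1% were higher and 18.8% lower. Mesoderm and heart genes were higher for 25 of 33 and lower for 3 (1 lower without Ring1a/b-dKO replicate 3 or without Ring1b-KO replicate 2, and 5 under median ratio or quantile scaling). The 3 lower genes, Meox1, Myl7 and Myl4, lie on chromosome 11. Foxf1, a lateral mesoderm factor, had 8.44, 7.5 and 7.99 TPM in Ring1a/b-dKO, against 0.83, 1.13 and 0.7 TPM in Ring1b-KO. Tbx1 and Nkx2-5 averaged 14.4 and 15.6 TPM in Ring1a/b-dKO, against 2.61 and 3.45 TPM in Ring1b-KO. Endoderm genes were higher for 16 of 26 and lower for 6. Gata4, an extraembryonic endoderm regulator, had 16.05, 14.7 and 14.9 TPM in Ring1a/b-dKO, against 9.79, 8.88 and 9.73 TPM in Ring1b-KO. Gata6, its partner, had 9.0, 9.94 and 10.6 TPM in Ring1a/b-dKO, against 5.78, 5.53 and 5.3 TPM in Ring1b-KO. Neither overlapped, and they rose by 0.63 and 0.73 (adjusted p = 2.86e-06 and 3.59e-05). Lama1, a basement membrane laminin chain, had 4.75, 3.25 and 4.38 TPM in Ring1a/b-dKO, against 25.9, 23.3 and 21.15 TPM in Ring1b-KO, a fall of 2.26 (adjusted p = 2.81e-08). Neuroectoderm and neuronal genes were 12 higher and 7 lower of 25 (48.0% and 28.0%), shares near those of all genes, with Pax6 and Nes up by 1.69 and 1.58 and Stmn2 down by 1.38. Secreted signals were higher for 25 of 34 and lower for 6. Bmp1, listed by its name but a protease that processes collagen and BMP inhibitors, had 54.25, 54.3 and 53.5 TPM in Ring1a/b-dKO, against 4.93, 5.08 and 5.5 TPM in Ring1b-KO. Lefty2, a Nodal antagonist, had 82.9, 81.8 and 79.9 TPM in Ring1a/b-dKO, against 394, 399 and 428 TPM in Ring1b-KO. Both were fully separate, in opposite directions.

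**Figure D5:**
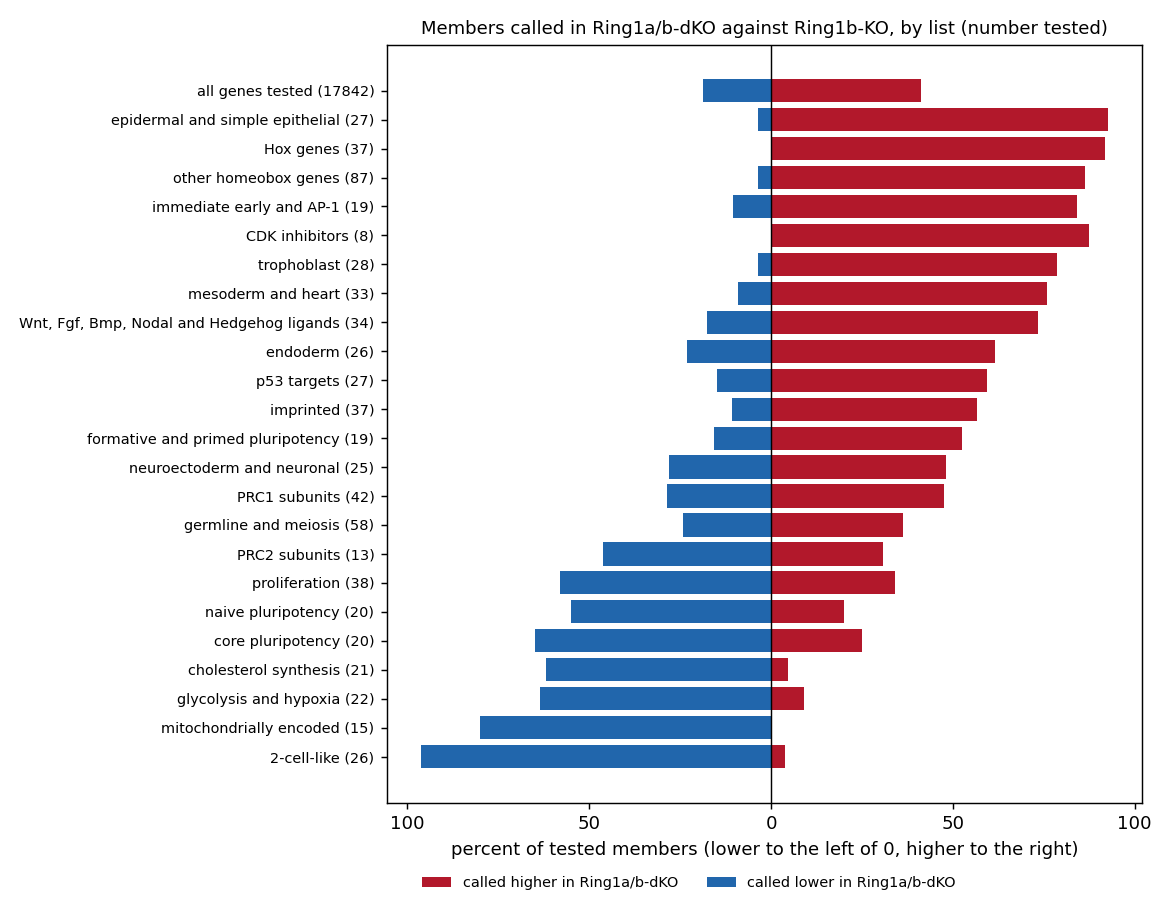
Percent of the tested members of each list called higher (right, red) or lower (left, blue) in Ring1a/b-dKO than in Ring1b-KO, with all genes tested in the top row (41.1% higher and 18.8% lower) and the number tested in brackets. The epithelial, Hox, CDK inhibitor, other homeobox and immediate early lists extend furthest to the right of those plotted, and the 2-cell-like list furthest to the left.

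Of 42 PRC1 components, 20 were higher (47.6%, against 41.1% of all genes) and 12 lower (28.6%, against 18.8%), or 14 higher and 18 lower under median ratio scaling. Cbx8, a canonical PRC1 subunit, had 15.1, 15.5 and 13.0 TPM in Ring1a/b-dKO, against 6.99, 5.65 and 7.31 TPM in Ring1b-KO. Bcor, the platform of the Pcgf1 complex, had 62.45, 66.0 and 63.2 TPM in Ring1a/b-dKO, against 21.5, 22.45 and 22.5 TPM in Ring1b-KO, a rise of 1.49 (adjusted p = 3.42e-09). Both were separate between genotypes, and Cbx8 lies on chromosome 11, where 61.2% of genes were called higher. Without chromosomes 11 and 16, 15 of 34 PRC1 components were higher and 11 lower. Bmi1 was higher by 0.56 ± 0.19 (adjusted p = 0.0185) but lost its call under both other scalings, and Pcgf5, higher by 0.31 (adjusted p = 0.00256), lost it under both too. Pcgf6 was lower by 0.21 (adjusted p = 0.00454), with no call at log2(TPM + 0.1). Pcgf2, Pcgf3 and Pcgf1 were not called. Pcgf1 averaged 21.2 TPM in Ring1a/b-dKO and 15.3 TPM in Ring1b-KO without overlap, and was called when only the 6 compared libraries were fitted (adjusted p = 0.000949). Of 13 PRC2 genes 4 were higher and 6 lower, and Ezh1, the alternative methyltransferase, had 38.4, 38.4 and 38.05 TPM in Ring1a/b-dKO, against 18.4, 19.06 and 19.9 TPM in Ring1b-KO. Suz12, a core subunit, had 126, 121 and 125 TPM in Ring1a/b-dKO, against 177, 175 and 178 TPM in Ring1b-KO. Ezh1 and Suz12 also lie on chromosome 11.

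Cell cycle and stress genes are read against all genes tested, of which 41.1% were higher and 18.8% lower. Of 8 CDK inhibitor genes 7 were higher. Cdkn1a (p21), which p53 induces, had 104, 104 and 99.2 TPM in Ring1a/b-dKO, against 45.9, 45.2 and 48.1 TPM in Ring1b-KO, a rise of 1.13 ± 0.04 (adjusted p = 7.13e-12). Cdkn2a, the Ink4a and Arf locus that PRC1 represses, had 62.0, 66.7 and 72.4 TPM in Ring1a/b-dKO, against 52.9, 46.9 and 51.8 TPM in Ring1b-KO, a rise of 0.40 (adjusted p = 5.58e-04) that was not called under median ratio scaling (0.21, adjusted p = 0.0715). p53 targets were higher for 16 of 27 (59.3%) and lower for 4 (14.8%), or 14 and 7 under median ratio scaling. Mdm2 was at 232 TPM in Ring1a/b-dKO and 103 TPM in Ring1b-KO. Proliferation genes were lower for 22 of 38 and higher for 13. The higher count was 5 under median ratio scaling, 7 after quantile normalization, and 8 without Ring1a/b-dKO replicate 1 or without Ring1b-KO replicate 1. Immediate early genes and their AP-1 products were higher for 16 of 19, and Jun had 31.4, 31.3 and 31.9 TPM in Ring1a/b-dKO, against 5.17, 5.2 and 5.29 TPM in Ring1b-KO. Fosl1, a Fos-related partner of Jun, had 9.95, 9.08 and 8.97 TPM in Ring1a/b-dKO, against 0.77, 1.2 and 0.55 TPM in Ring1b-KO. Neither overlapped. Among 17 integrated stress response genes, 9 were lower and 5 higher. Ddit3 (CHOP), a stress-induced factor, had 44.2, 41.5 and 44.7 TPM in Ring1a/b-dKO, against 6.62, 6.98 and 8.65 TPM in Ring1b-KO, a rise of 2.41 (adjusted p = 6.48e-10). Asns, asparagine synthetase, had 103, 102 and 103 TPM in Ring1a/b-dKO, against 248, 237 and 242 TPM in Ring1b-KO, a fall of 1.23 (adjusted p = 2.04e-13). Heat shock genes were 7 higher (58.3%) and 3 lower (25%) of 12, or 5 and 5 under median ratio scaling. The small chaperone Cryab had 56.65, 61.8 and 62.9 TPM in Ring1a/b-dKO, against 8.31, 7.22 and 7.33 TPM in Ring1b-KO. Hspa1a and Hspa1b, near-identical copies, rose by 1.92 and 1.22.

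Metabolic genes were mostly lower, while of all genes tested 18.8% were lower and 41.1% higher. Glycolysis and hypoxia genes were lower for 14 of 22 and higher for 2, and cholesterol synthesis genes were lower for 13 of 21 and higher for 1. Pfkp, a phosphofructokinase isoform, had 27.15, 27.6 and 26.6 TPM in Ring1a/b-dKO, against 92.2, 100.3 and 92.8 TPM in Ring1b-KO. Insig1, a sensor of sterol supply, had 37.65, 34.8 and 34.9 TPM in Ring1a/b-dKO, against 81.4, 85.4 and 87.0 TPM in Ring1b-KO. Neither gene overlapped between genotypes, with falls of 1.77 and 1.22. Mitochondrially encoded genes were lower for 12 of 15.

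Imprinted genes were 21 higher (56.8%, against 41.1% of all genes) and 4 lower (10.8%, against 18.8%) of 37. Under median ratio scaling 7 were lower. Igf2, the fetal growth factor, had 546, 548 and 536 TPM in Ring1a/b-dKO, against 77.7, 77.3 and 80.9 TPM in Ring1b-KO, a rise of 2.77 ± 0.04 (adjusted p = 3.64e-16). H19, the non-coding RNA that shares its enhancers, had 3.96, 5.72 and 4.57 TPM in Ring1a/b-dKO, against 65.6, 67.9 and 71.6 TPM in Ring1b-KO, a log2 fold change of -3.60 ± 0.10 (adjusted p = 4.07e-13). The neighbours thus moved in opposite directions, and both were far apart between genotypes. Igf2 averaged 31.27 TPM in Ring1a-KO and 19.04 TPM in WT, and H19 averaged 0.823 TPM in Ring1a-KO and 0.287 TPM in WT. Both genes therefore stood above WT in Ring1a/b-dKO as well as in Ring1b-KO. Mest, a paternally expressed gene, had 1.93, 2.0 and 2.29 TPM in Ring1a/b-dKO, against 46.5, 46.9 and 45.7 TPM in Ring1b-KO, a fall of 3.95 (adjusted p = 3.26e-16). Ring1a-KO averaged 1.41 TPM of Mest and WT 76.0 TPM. Mid1, a microtubule-associated ubiquitin ligase on the X chromosome, had the same order, with 1.3, 1.74 and 1.46 TPM in Ring1a/b-dKO, against 49.8, 56.1 and 58.4 TPM in Ring1b-KO, 1.49 TPM in Ring1a-KO and 62.5 TPM in WT. Like the Y-linked genes, both were low in the 2 genotypes labelled as lacking Ring1a and higher in Ring1b-KO and WT, and for them the loss of Ring1a cannot be told apart from a difference between the cell lines.

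Other genes were also among the largest changes, most of them in none of the lists. Ccn1 (Cyr61), a secreted matrix protein, had 206, 206.5 and 207 TPM in Ring1a/b-dKO, against 26.7, 24.0 and 26.6 TPM in Ring1b-KO, a rise of 2.96 (adjusted p = 1.28e-15). Dmkn, a secreted protein of the epidermis, had 51.9, 54.4 and 53.6 TPM in Ring1a/b-dKO, against 4.91, 5.42 and 6.64 TPM in Ring1b-KO. Ly6a (Sca-1), a surface protein of several progenitor cells and a member of the epithelial list, had 15.4, 15.9 and 13.9 TPM in Ring1a/b-dKO, against 0.52, 0.76 and 0.79 TPM in Ring1b-KO. None of these 3 overlapped between genotypes. Efhc2, an EF-hand protein gene on the X chromosome, had 23.9, 23.2 and 21.9 TPM in Ring1a/b-dKO, against 1.49, 1.7 and 1.77 TPM in Ring1b-KO, and averaged 13.4 TPM in Ring1a-KO and 4.15 TPM in WT. Obox6, an oocyte homeobox gene, had 0.48, 1.62 and 1.12 TPM in Ring1a/b-dKO, against 24.8, 23.3 and 23.6 TPM in Ring1b-KO, a fall of 3.62 (adjusted p = 2.04e-10). Ugt3a2, a sugar transferase gene, had 2.88, 2.53 and 1.35 TPM in Ring1a/b-dKO, against 40.04, 41.1 and 41.8 TPM in Ring1b-KO. Xlr5a, an X-linked gene, had 0.37, 0.18 and 0.11 TPM in Ring1a/b-dKO, against 14.4, 13.4 and 15.8 TPM in Ring1b-KO, and its near-identical copy Xlr5b shares reads with it, so the split between them is uncertain. For these 3 genes Ring1b-KO was the highest of the 4 genotypes, with means of at most 1.18 TPM in Ring1a-KO and 0.713 TPM in WT. Pdcd5-ps, a processed pseudogene, had 0, 0 and 13.7 TPM in Ring1a/b-dKO, against 36.85, 33.0 and 47.2 TPM in Ring1b-KO, a fall of 4.01 (adjusted p = 0.0247) that was no longer called without Ring1a/b-dKO replicate 1 or 2 (adjusted p = 0.0913 and 0.0914) or without Ring1b-KO replicate 1 or 3 (adjusted p = 0.0521 and 0.0606). Snora73b, a small nucleolar RNA, also varied widely within Ring1b-KO, with 1.63, 4.17 and 1.29 TPM in Ring1a/b-dKO, against 60.6, 15.8 and 55.3 TPM in Ring1b-KO.

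Fewer genes were called for the step labelled as Ring1a loss where Ring1b was present. In both steps, genotype and cell line cannot be told apart for any gene. The interaction given below carries the same limit. Between Ring1a-KO and WT, 2193 genes were higher (12.3%) and 1930 lower (10.8%), 151 of each by at least 2-fold. Of the 2193 genes, 1185 (54% of them, 16.2% of the double knockout's rises) were also higher in Ring1a/b-dKO than in Ring1b-KO and 450 (20.5%) were lower. Of the 1930 genes, 563 (29.2%, and 16.8% of the double knockout's falls) were lower in both and 815 (42.2%) were higher. Among all genes tested, 41.1% were higher and 18.8% lower in Ring1a/b-dKO than in Ring1b-KO. Across the genes tested, the 2 sets of log2 changes had a Pearson r of 0.07, over genes that are not independent. The interaction, which asks whether the Ring1a step differs between the Ring1b-KO and WT backgrounds, was called for 8688 genes (48.7%), 5915 of them positive and 2773 negative. Nanog had an interaction of -3.70 ± 0.07 (adjusted p = 1.82e-14), S100a6 of 3.44 ± 0.12 (adjusted p = 1.38e-11) and H19 of -4.11 ± 0.14 (adjusted p = 1.38e-11). Mid1 was lower in both backgrounds, and its interaction of 0.19 ± 0.15 (adjusted p = 0.321) was not called.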

How the data were processed

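Per the labels' protocols, RNA was extracted with Trizol and libraries were made with a TruSeq RNA kit. The authors deposited TPM for 56551 genes in 18 libraries. Per the submitters' processing notes the tools were TopHat2 2.1.1, RSEM and edgeR and the build GRCm38.p5, with their roles not given in the sources used here. TPM keeps no counts, so count tests were not run and depth is unknown. A value of exactly 0 is described as listed at 0. The 6 deposited mean columns were not used.

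Gene symbols came from a GENCODE annotation of GRCm38 (55227 genes matched). Each value became log2(TPM + 1), a scale on which the fold of a low gene is understated. The 17842 genes that reached 1 TPM in at least 3 of 18 libraries (927 without a symbol) were fitted with limma 3.58.1 in R 4.3.3, with 1 mean per group, a trend on the mean, 12 residual degrees of freedom, and two-sided tests with Benjamini-Hochberg adjustment over all genes. The procedure was checked on simulated data. Library composition was compared with a two-sided exact permutation test. Promoter windows were RefSeq's (GRCm38.p6), and a comparison of CpG content between the genes called at 2-fold is not reported, because only 41.5% of the fallen and 69.7% of the risen genes had a window.

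The comparison, the lists and the rule for named genes were chosen with earlier results of these data known. The rule took Ring1, Rnf2 and the Pcgf genes, the 12 largest rises and 12 largest falls with a mean of 5 TPM or more, non-overlapping libraries and an established symbol, the 3 largest changes per list in each direction, and a fixed set of pluripotency, lineage, imprinted and sex-linked genes; other genes were chosen after their values were seen. The alternatives were the pseudocount, the filter, median ratio and quantile scaling, nuclear protein-coding genes only, only the compared libraries, no trend, a replicate block, each library left out and, added after seeing the data, leaving out chromosomes 11 and 16. A few genes are not reported here.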

Additional observations from a re-analysis of the deposited data

Results flagged for a closer look

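The Ring1a step was compared between backgrounds through the interaction, the log2 change of Ring1a/b-dKO over Ring1b-KO minus that of Ring1a-KO over WT, tested with limma and adjusted over 17842 genes. Of the genes named whatever their result, those with an adjusted p under 0.05 are listed here. Negative values, where the step was lower or more downward with Ring1b targeted, were -4.11 for H19, -3.95 for Zscan4f, -3.70 for Nanog, -2.73 for Dazl and -2.51 for Tdgf1. Smaller ones were -1.49 for Rnf2, -0.69 for Pou5f1, -0.69 for Sox2 and -0.38 for Zfp42. Positive values were 2.53 for Hand1, 2.39 for Cdx2, 2.09 for Igf2, 0.91 for Cdkn1a, 0.79 for Xist, 0.72 for Gata4, 0.63 for Gata6 and 0.33 for Cdkn2a. Mest (1.05) and the Y-linked genes Eif2s3y (3.88), Ddx3y (2.03), Uty (1.87) and Kdm5d (0.97) also had positive values. They were lower in Ring1a/b-dKO than in Ring1b-KO, and by more in Ring1a-KO than in WT. The Y-linked genes were near 0 in both Ring1a/b-dKO and Ring1a-KO.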

How the results depend on the processing

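The counts of genes called, called higher and called for the interaction stayed within 1.5 times of the reported ones under the alternatives run. Called lower moved to 5163 under median ratio scaling. The counts at 2-fold depend on the pseudocount: 2505 higher and 1101 lower with log2(TPM + 0.1), and 473 higher and 292 lower with log2(TPM + 5). At least 2-fold higher were 1000 with median ratio scaling and 968 with quantile normalization. At least 2-fold lower were 469 with a filter of 5 TPM and 445 with nuclear protein-coding genes only. The cause of these moves was not tested, apart from fewer genes tested in the last pair. Leaving out each library in turn gave 9795 to 9992 genes called, 6741 to 6935 higher, 3020 to 3079 lower, 1529 to 1596 at 2-fold higher, 705 to 725 at 2-fold lower and 8087 to 8262 for the interaction. Leaving out chromosomes 11 and 16, chosen after seeing the data, gave 9310 called. With a replicate block, 10584 genes were called, and the 180 named genes kept their call and direction. Deviations of same-numbered libraries of Ring1a/b-dKO and Ring1b-KO correlated at 0.052, 0.006 and -0.021. Those of differently numbered libraries correlated at -0.056 to 0.049. No shared deviation by number was seen, which does not tell whether same-numbered libraries shared a batch. No named gene reversed under the alternatives run, and at most 7 of the 180 lost their call under any of them. TPM hides depth, so low levels carry an unknown counting error.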

Other observations

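Further lists are given beside all genes tested, of which 41.1% were higher and 18.8% lower. Of 83 cytosolic ribosomal protein genes, 39 were lower (47.0%) and 10 higher, and 3 named rises lie on chromosomes 16 and 11 (Rpl24, Rpl35a and Rpl23). Rpl39l, a testis form, averaged 1.64 TPM in Ring1a/b-dKO and 20.9 TPM in Ring1b-KO. Of 61 replication-dependent histone genes 16 were higher (26.2%) and 2 lower (3.28%), both below the shares of all genes, many of them near-identical copies, with Hist1h1c at 38.2 TPM in Ring1a/b-dKO and 4.74 TPM in Ring1b-KO. Their share of TPM was 0.0420% in Ring1a/b-dKO and 0.0274% in Ring1b-KO. Of 9 DNA methylation enzymes 3 were higher (33.3%) and 2 lower (22.2%), near the shares of all genes, or 3 and 4 under median ratio scaling, with Dnmt3l at 742 TPM in Ring1a/b-dKO and 361 TPM in Ring1b-KO.

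Of 12 blood and endothelial markers 8 were tested, and 3 were higher (37.5%) and 2 lower, also near those shares. Their sum was 137 to 145 TPM in Ring1a/b-dKO and 54.4 to 58.8 TPM in Ring1b-KO, most of it Cd68 and Laptm5. Cd68 averaged 75.4 TPM in Ring1a/b-dKO and 11.95 TPM in Ring1b-KO, while Ptprc, which marks blood cells, was under 0.02 TPM in both means and Hbb-bt was listed at 0 in all 6 libraries. Among 4 tested X inactivation genes, Xist rose to 1.57, 1.61 and 2.05 TPM in Ring1a/b-dKO, against 0.28, 0.36 and 0.31 TPM in Ring1b-KO. Rlim rose by 1.18 and Ftx fell by 1.13 on the log2 scale.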
